A study of Mus musculus with 6 samples.

Results

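RNA from 180 places inside mouse chromosomes was almost missing from the total chromatin of mouse erythroleukemia (MEL) cells, yet gave reads in both libraries captured with TH59-DB, a polyamide probe built to bind telomere DNA. The members were selected on read counts and position among 7959 transcript models, short stretches assembled from the sequencing reads. A model was taken when it lay on chromosomes 1 to 19, more than 10 Mb from either chromosome end, held at most 3 reads over both input libraries together and held at least 10 reads in each TH59-DB library. Overlapping exons joined the 180 models into 166 loci, of which 14 held 2 member models that can share reads. The members made up 3.09% of the 5818 interior models and 11.6% of the 1556 interior models with at most 3 input reads.

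The study used C57BL/6 MEL cells crosslinked with formaldehyde, and the labels name no other treatment. Its 3 groups of 2 libraries each were input chromatin, chromatin isolated with masked TH59-DB, which served as the negative control probe, and chromatin isolated with TH59-DB. Only the second library of each group carries a number in the labels, so the other is called number 1. Separate cultures are not mentioned, so every p-value and SD here measures the spread between libraries, which may be technical.

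Telomeres are runs of a TTAGGG repeat that protect chromosome ends, and they are transcribed into long RNAs made partly of that repeat. Pyrrole-imidazole polyamides are small synthetic molecules that read short DNA sequences from the minor groove, and chromatin bound by a tagged polyamide can be pulled out together with its RNA. The TTAGGG repeat also occurs at places away from the ends in mouse chromosomes, and whether the members hold it was not searched because no mm10 genome sequence was used here.

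A reference sequence was at hand for the locus that lies partly in the promoter window of Tars2, which encodes the threonyl-tRNA synthetase of mitochondria. The single-exon model covered chr3:95755013-95755406 (mm10), and the 215 of its 394 bases that lie in that window, chr3:95755013-95755227, are shown on the minus strand, that of the gene, as the example of a member beside an annotated start. The bases are those of RefSeq on GRCm38.p6 and none is in capitals, since neither TTAGGG nor its reverse complement CCCTAA occurs in them.
Tars2: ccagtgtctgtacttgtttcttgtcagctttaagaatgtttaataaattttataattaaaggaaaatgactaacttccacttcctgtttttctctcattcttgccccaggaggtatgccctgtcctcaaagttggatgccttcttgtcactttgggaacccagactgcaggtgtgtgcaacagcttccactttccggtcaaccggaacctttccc
Of 32851 RefSeq promoter windows, from 250 bases before to 50 bases after a gene start, 10.6% held either motif on either strand. The Tars2 locus held 0 and 0 reads in the input libraries, 32 and 0 in the masked libraries and 11 and 10 in the TH59-DB libraries, listed here and below in the order of library 1 and library 2. Its masked values lay on both sides of its TH59-DB values. The 215 bases shown are only part of such a window, so that share is not a like comparison for them. The absence of the motif in these bases says nothing about the probe's binding there.

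Library totals ran from 1803723 to 3122558 reads, so that 1 read was worth 0.320 to 0.554 CPM, the count scaled to a library of 1000000 reads. An input count of 0 allows a level of up to 1.00 CPM in input 1 and 1.05 CPM in input 2, taking 3 reads as the limit, so "silent" holds only to that depth. TH59-DB 1 had no model under 5 reads, and masked TH59-DB 1 had 4341 models at 0. Of 20 erythroid marker genes, 11 had models, among them Gata1 and Klf1, transcription factors of red cell precursors, with a summed input level of 887 to 1258 CPM. Globin genes, Alas2 and Tfrc had no model. Models lay in 2 of 10 genes that mark other blood cells (24.1 to 49.4 CPM in the input), in 0 of 8 nerve cell genes and in 0 of 5 fibroblast genes. No member lay in any of these marker genes.

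Within the list of models, the limit on TH59-DB 2 did nearly all of the choosing. The list itself leaned to TH59-DB 1, where 99.3% of all models held at least 10 reads, against 30.3% to 58.7% in the other libraries. Shares of interior models given here are thus shares of a list rich in TH59-DB 1 reads, and the reason was not tested. At least 10 reads in TH59-DB 1 was met by 1545 of the 1556 interior models with at most 3 input reads, whereas at least 10 reads in TH59-DB 2 was met by 182 of them. The members held 0 input reads in 107 cases, 1 read in 38, 2 reads in 22 and 3 reads in 13. The remaining 1376 interior models with so few input reads are called the uncaptured models below. They missed at least 1 of the 2 TH59-DB limits. At least 10 reads were held in TH59-DB 1 by 1365 of them and in TH59-DB 2 by 2. The name thus does not mean a lack of reads in TH59-DB 1.

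The member loci together went from a trace of the input to a few percent of the TH59-DB reads. They made up 0.00214% and 0.00168% of the reads in the input libraries, 0.186% and 0.184% in the masked libraries, and 1.23% and 3.06% in the TH59-DB libraries. The groups did not overlap, and the gap between TH59-DB 1 and TH59-DB 2 was wider than that between TH59-DB 1 and the masked libraries. The group means were 0.00191% ± 0.000327 in the input, 0.185% ± 0.000985 in masked TH59-DB and 2.14% ± 1.29 in TH59-DB (SD, n = 2 each), so the ratio of TH59-DB to masked TH59-DB was 11.6. For the 1376 uncaptured loci the same ratio was 11.3, with 1.16% and 0.0662% of the reads in the TH59-DB libraries and 0.0422% and 0.0662% in the masked libraries. Without the 2 member loci with most reads, the members' ratio was 12.1. In bulk libraries, fewer cells with an RNA and less of it per cell cannot be told apart. Because the TH59-DB and input counts chose the loci, these values describe the choice and carry no test.

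The masked reads, which the selection did not use, separate the members into kinds. The probe used as a control returned at least 1 read from 119 of the 180 members, 66.1% (95% exact binomial interval 58.7% to 73.0%), against 28.6% (26.2% to 31.0%) of the uncaptured models. At least 10 reads in both masked libraries were found for 33 members, 18.3% (13.0% to 24.8%), against 5 uncaptured models, 0.363% (0.118% to 0.846%). The share was 16.8% (9.94% to 25.9%) of the 95 models chosen by the same counts within 10 Mb of a chromosome end and 56.8% (54.7% to 58.9%) of the 2248 interior models with more than 3 input reads that met the TH59-DB limits; the interval of the end models includes the members' share. These 33 thus met the limit of 10 reads with the control probe as well, and meeting it does not set TH59-DB apart for them. Their median levels were 14.2 and 12.5 CPM in the masked libraries and 182 and 300 CPM in the TH59-DB libraries. TH59-DB counts chose the members, so that gap carries no test. The other end of the range held 61 members with 0 reads in both masked libraries, 33.9% (27% to 41.3%), against 71.4% of the uncaptured models and 46.3% (36.0% to 56.8%) of the 95 end models. With at least 20 reads required in each TH59-DB library it was 21.6%. The intervals cover counting error only, no test of the differences was run, and models differ in read number between the classes.

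**Figure D1:**
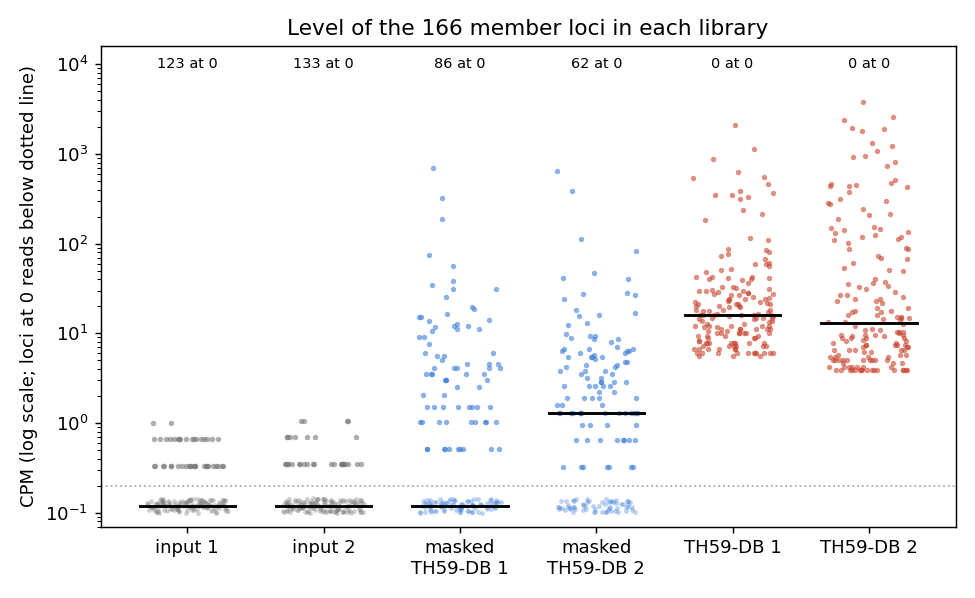
Level of each member locus in each library, in CPM on a log scale, with 166 points per library, a black bar at the median and loci with 0 reads gathered below the dotted line. The TH59-DB libraries have 0 loci at 0 reads by construction, and the masked libraries have 86 and 62 such loci.

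Fold values against the control spread over more than 2 orders of magnitude. At the 108 loci with masked reads, mean TH59-DB CPM was 0.549 to 299 times mean masked CPM, with a median of 13.5 and quartiles of 5.22 and 34.3. The ratio was under 1 at 5 of these loci, namely Tars2 (0.613), Cux1 (0.960), a homeobox transcription factor gene, chr3:95646162 (0.791), chr11:17875802 (0.878) and chr14:95638412 (0.549). At the 58 loci with 0 masked reads, TH59-DB was at least 3.94-fold to at least 68.4-fold higher, computed against 3 reads per masked library. In CPM, both TH59-DB libraries lay above both masked libraries for 166 of the 180 members, where 21.8% of all 7959 models and 97.9% of the 95 end models did so. The floor on both TH59-DB libraries largely builds this count in, so nothing is read from it. Both masked libraries lay above both TH59-DB libraries for 1 member, chr14:95638412, with 61 and 76 masked reads and 38 and 24 TH59-DB reads.

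Ranked by the lower of the 2 TH59-DB levels in CPM, the first locus lay inside the span of Ptprm, a receptor-type tyrosine phosphatase that takes part in cell adhesion. Its model of 85 bases at chr17:66799476-66799560 (mm10) held 3 and 0 input reads, 374 and 129 masked reads and 3795 and 6212 TH59-DB reads. The levels were 190 and 41.3 CPM with masked TH59-DB and 2104 and 2399 CPM with TH59-DB. All TH59-DB values lay above all masked values, and the masked libraries differed from each other more than the TH59-DB libraries did in relative terms. The ratio of means was 19.5, and the ratio of pooled reads was 23.1 with a 95% exact interval of 21.1 to 25.3. That interval, like those of the pooled ratios below, covers counting error only and leaves out the spread between libraries. The span of this gene runs over 688 kb, and lying within a span does not make a model part of the gene's own transcript.

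Second by that rank, and first by summed TH59-DB reads, was a locus of chromosome 17 in the span of Lama1, which encodes the laminin alpha 1 chain of basement membranes. The model of 295 bases at chr17:67741287-67741581 held 2 and 0 input reads, 633 and 1213 masked reads and 2027 and 9720 TH59-DB reads. TH59-DB 2 reached 3754 CPM, TH59-DB 1 1124 CPM, and the masked libraries 321 and 388 CPM, so the groups stood apart while the captures differed widely. The ratio of means was 6.87, below the median of the loci.

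The third locus by the lower TH59-DB level was nearly as high with the control probe. A model of 2 exons and 53 bases in no gene span, at chr10:109396053-109422780, held 2 and 1 input reads, 1385 and 2030 masked reads and 1594 and 2439 TH59-DB reads. Its levels were 703 and 650 CPM with masked TH59-DB and 884 and 942 CPM with TH59-DB. The groups did not overlap, yet the ratio of means was 1.35, and the pooled ratio was 1.37 (1.31 to 1.43). This locus had the most masked reads of all members.

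Several loci with many TH59-DB reads had far fewer masked reads. The locus in the lncRNA gene 6030407O03Rik at chr1:73853387-73853738 held 2 and 0 input reads, 18 and 39 masked reads and 988 and 4865 TH59-DB reads, a ratio of means of 112. The locus at chr1:19122597-19176350, in no gene span, held 1 and 0 input reads, 22 and 57 masked reads and 661 and 5097 TH59-DB reads, a ratio of 79.4. In both cases the TH59-DB libraries lay above the masked ones, and TH59-DB 2 was several times TH59-DB 1.

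The widest ratio of means belonged to chr16:30829532-30829659, also in no gene span. It held 2 and 0 input reads, 6 and 20 masked reads and 384 and 6752 TH59-DB reads. The ratio was 299, and it rests mainly on TH59-DB 2, which read 2608 CPM where TH59-DB 1 read 213 CPM. The pooled ratio was 318 (217 to 488), with an interval of counting error that leaves out this gap between libraries. All 15 loci highest by their lower TH59-DB level were higher in TH59-DB 2 than in TH59-DB 1 in CPM, as were 90 of the 180 members, 50%. So were 11.5% of all interior models and 37.9% of the 95 end models. Among interior models with more than 3 input reads that met the TH59-DB limits, the share was 25.1%. The limit on TH59-DB 2 favours such models, so nothing is read from the members' share. The upper quartile of the members was 113 CPM in TH59-DB 2 and 38.4 CPM in TH59-DB 1.

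Other loci among the 15 highest by their lower TH59-DB level fell between these cases. Gm32035, a lncRNA gene, held 2 and 1 input reads, 111 and 257 masked reads and 1132 and 2414 TH59-DB reads at chr4:93844367-93844579, a ratio of 11.3. Gm35315 held 0 and 0 input reads, 8 and 18 masked reads and 691 and 1226 TH59-DB reads at chr5:110074183-110074712, a ratio of 87.2. The TH59-DB libraries lay closer to each other at both than at the 3 loci described just before.

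The locus chr9:61716555-61722624 held 1 and 0 input reads, 30 and 27 masked reads and 982 and 3396 TH59-DB reads. At chr5:60848105-60848187 there were 2 and 0 input reads, 50 and 127 masked reads and 826 and 4659 TH59-DB reads. At chr14:74065915-74073706 there were 1 and 0 input reads, 23 and 29 masked reads and 626 and 3206 TH59-DB reads. None of these 3 lies in a gene span, and TH59-DB lay above masked TH59-DB in each.

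Counted per length, in reads per kb per 1000000 reads, the order changed because many of these models are very short. The Ptprm locus stayed highest by its lower value, with 24753 and 28227. The locus chr10:109396053-109422780 followed with 16674 and 17774, and chr14:74065915-74073706, a model of 51 bases, had 6805 and 24280. The locus chr5:60848105-60848187, of 83 bases, had 5517 and 21680. The last 3 overlapped one another over their libraries, so their order is not resolved, while Ptprm lay above the chr10 locus in both libraries. Lama1, second by its lower CPM, was sixth by its lower value per length, with 3809 and 12726. This order took 1 model per locus, that with the higher lower CPM, and the longer of equals. Among shorter models left out, Gm32035 of 113 bases had 5554 and 8251, and Sh3bgrl2 of 54 bases had 4415 and 5236. Both lay above Lama1 by their lower value, so the order depends on the choice of model.

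Reads were concentrated in few loci. The 10 loci with most reads in TH59-DB 1 held 60.1% of its member reads, and the 10 with most in TH59-DB 2, chosen anew, held 62.1% of those in that library, while the median locus held 29 and 34 reads. At least 1000 reads were reached by 4 loci in TH59-DB 1 and by 20 in TH59-DB 2. Across the 166 loci the counts of TH59-DB 1 and 2 had a Spearman correlation of 0.739, those of the masked libraries 0.767, those of masked 2 with TH59-DB 2 0.579 and those of the input libraries 0.00682. The points share their libraries, counts below 10 were cut off in TH59-DB, and the summed input counts were capped at 3. These values are therefore a description. Across 4224 interior loci with more than 3 input reads, the input libraries had a correlation of 0.870.

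**Figure D2:**
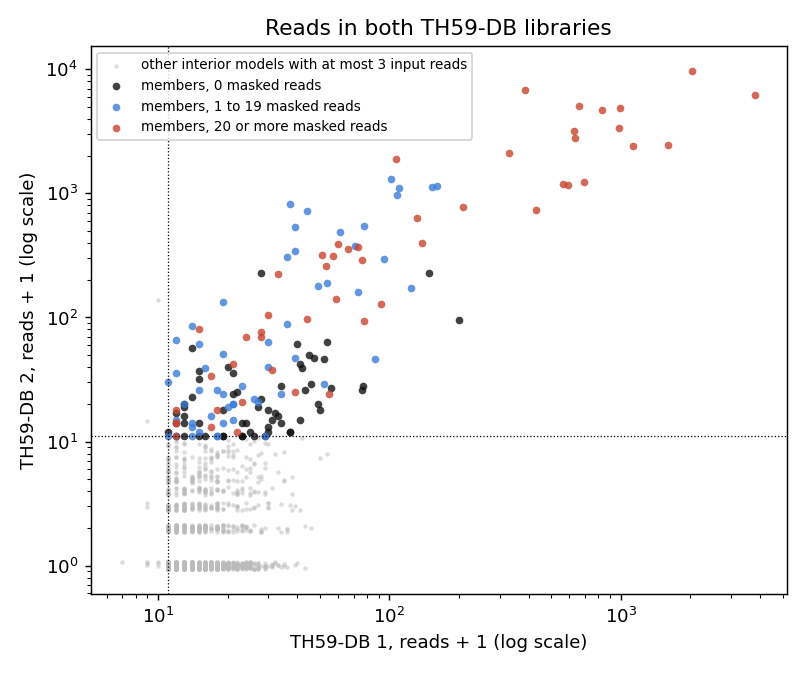
Reads in TH59-DB 1 and TH59-DB 2, each plus 1 on log axes, for the 166 member loci, coloured by their masked reads, and for the 1376 uncaptured models in grey, which were moved slightly apart in the vertical direction. Dotted lines mark 10 reads. All but 2 grey points lie below the horizontal line, and the loci with most reads in both libraries all have 20 or more masked reads, although some with as many lie near the corner of the lines.

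The members with 0 masked reads were led by a locus of Nedd4l, which encodes a ubiquitin ligase of membrane proteins. Its model of 1336 bases at chr18:65103650-65104985 held 0 and 2 input reads, 0 and 0 masked reads and 147 and 229 TH59-DB reads. The levels in TH59-DB were 81.5 and 88.4 CPM, close together, and at least 68.4-fold above the control. Next came a model of 5 exons and 1611 bases at chr5:32629166-32723305, in no gene span, with 0 and 1 input reads, 0 and 0 masked reads and 198 and 94 TH59-DB reads. It was the only member with more than 2 exons.

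The other leaders of this kind had fewer reads in each capture. The locus chr4:141008907-141010032 held 1 and 0 input reads and 53 and 62 TH59-DB reads. Septin11, a gene of the septin cytoskeleton, held 1 and 0 input reads and 39 and 60 TH59-DB reads at chr5:93159539-93160344. Plekha6 held 1 and 0 input reads and 44 and 49 TH59-DB reads at chr1:133171953-133172722. For these 3 the bound on the ratio was at least 17.4-fold.

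Pde3b, which encodes a phosphodiesterase of cyclic nucleotides, held 0 and 0 input reads and 46 and 46 TH59-DB reads at chr7:114484970-114485280. Hira, which encodes a histone H3.3 chaperone, held 0 and 0 input reads and 51 and 45 TH59-DB reads at chr16:18958395-18958812. The locus chr10:101249843-101250087 held 0 and 0 input reads and 40 and 41 TH59-DB reads. In these 3 loci the 2 TH59-DB libraries gave nearly equal counts, and the 4 other libraries gave none. In CPM, TH59-DB 1 was the higher at each. The levels were 25.5 and 17.8 CPM at Pde3b, 28.3 and 17.4 CPM at Hira and 22.2 and 15.8 CPM at the chr10 locus.

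Models without masked reads were longer than the rest and held fewer TH59-DB 2 reads. Their median length was 385 bases, against 185 bases for members with masked reads and 113 bases for those with at least 10 reads in both masked libraries. Their median count in TH59-DB 2 was 18 reads, against 92 reads for members with masked reads. Lengths of all members ran from 43 bases, at chr1:43420868-43420910, to 1619 bases, at chr5:32716495-32718113, with a median of 227.5, and the medians of the uncaptured models and of interior models with more than 3 input reads were 194 and 283 bases.

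**Figure D3:**
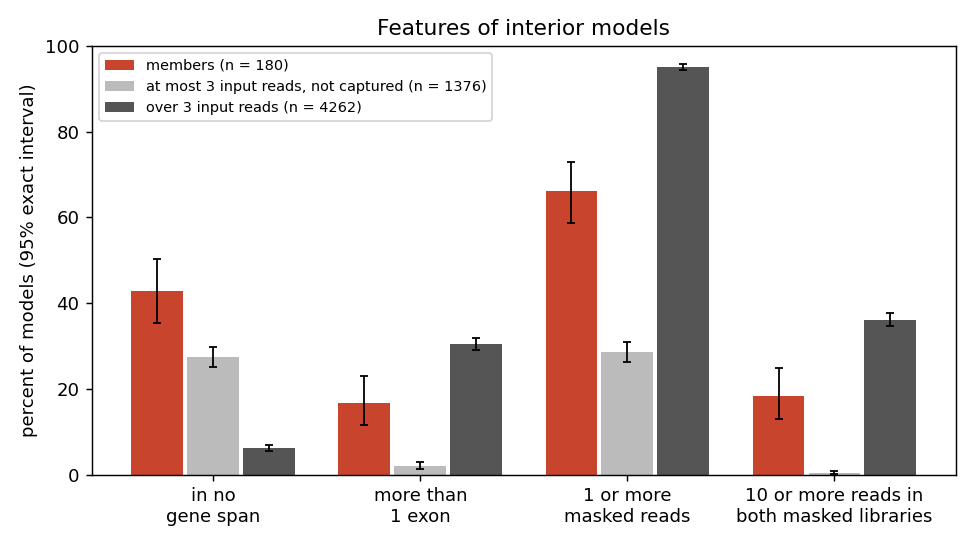
Percent of models with each feature among the 180 members, the 1376 uncaptured models and the 4262 interior models with more than 3 input reads, with 95% exact intervals. Members lie at 42.8% in no gene span and 16.7% with more than 1 exon, above the uncaptured models at 27.3% and 1.96%.

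A larger share of the members lay outside annotated genes than in either class of other interior models. In no RefSeq gene span were 77 of 180 members, 42.8% (35.4% to 50.4%), against 27.3% (25% to 29.8%) of the uncaptured models and 6.22% (5.51% to 6.98%) of interior models with more than 3 input reads. Spans of protein-coding genes held 93 members, 51.7%, lncRNA spans held 9, 5%, and 1 member lay in the pseudogene Cyp2j14-ps. Among the 95 end models, 56.8% (46.3% to 67.0%) lay in no span, an interval that overlaps that of the members.

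Distances to the nearest RefSeq gene start were also long. The median over 157 member loci, chromosome 18 not used, was 36.2 kb, against 23.2 kb for 1320 uncaptured loci and 9.88 kb for 4122 loci with more than 3 input reads. Within 1 kb of a gene start lay 2.55% of the member loci, 7.65% of the uncaptured loci and 21.1% of the loci with more input reads. More than 100 kb away lay 26.1%, 18.7% and 6.99% in the same order. Closeness to a start was thus lowest for the members, with no test run on it.

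Models with more than 1 exon were 30 of the 180 members, 16.7% (11.5% to 22.9%), against 1.96% (1.30% to 2.84%) of the uncaptured models, 8.42% (3.71% to 15.9%) of the 95 end models and 30.5% of interior models with more than 3 input reads. Of the 30, 29 had 2 exons, and the gap between exons ran from 0.022 to 72.5 kb with a median of 6.425 kb. The exons together were short, from 47 bases with a median of 157. A strand was given for 26 of them, plus for 12 and minus for 14. None of the 150 single-exon members had a strand in the files of the second libraries.

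The 2-exon members included some of the highest counts, though several of them shared their locus with a single-exon member. Sh3bgrl2 at chr9:83559202-83562808, of 54 bases, held 1 and 0 input reads, 39 and 21 masked reads and 430 and 732 TH59-DB reads, a ratio of 19.7. The locus chr14:69159638-69162554 held 0 and 0 input reads, 9 and 2 masked reads and 152 and 1129 TH59-DB reads, a ratio of 99.9. Single-exon members held 430 and 732 TH59-DB reads at the Sh3bgrl2 locus and 152 and 1127 at the chr14 locus. The counts at both loci therefore cannot be credited to the 2-exon models alone. Ttc21b, a gene of transport within cilia, held 1 and 0 input reads, 75 and 87 masked reads and 77 and 92 TH59-DB reads at chr2:66185762-66189510. Its levels were 38.1 and 27.9 CPM with masked TH59-DB and 42.7 and 35.5 CPM with TH59-DB, so the groups overlapped. The ratio of means was 1.19, with a pooled interval of 0.969 to 1.51 that covers counting error only. The probes were thus not told apart there.

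The gene spans that held members were large, with a median of 122779 bases over member models. The medians were 74714.5 bases for the uncaptured models and 31287 bases for interior models with more than 3 input reads. For the end models the median was 51182 bases, and no test was run on these lengths. The 94 loci in spans fell in 82 genes, and the span ran over 100 kb at 56 loci and over 500 kb at 14. Of 55 long genes of fragile sites and nerve cells on a list, 23 had an interior model, and 8 of their 44 models were members. Since 34 of the 44 held at most 3 input reads, the share among models that could be chosen by input was 23.5%, against 11.6% of all 1556 such interior models. The list was chosen with earlier results of these data known and several models share a gene, so the share is a description.

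Within that list, Lrp1b, a receptor of the LDL receptor family, held 0 and 0 input reads, 7 and 6 masked reads and 43 and 720 TH59-DB reads. Immp2l, a subunit of the peptidase of the inner mitochondrial membrane, held 0 and 0 input reads, 0 and 4 masked reads and 70 and 379 TH59-DB reads. Tenm3, a teneurin of cell contacts between neurons, held 0 reads in the input and masked libraries and 33 and 27 in TH59-DB. Lrp1b and Immp2l were much higher in TH59-DB 2 than in TH59-DB 1, and Tenm3 was not.

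Erbb4, a receptor tyrosine kinase, held 0 reads in the input and masked libraries and 22 and 10 in TH59-DB. Its TH59-DB reads were the fewest among the long genes named here. Nedd4l, described above and below, is also on the list.

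Other gene groups differed in how many models could be chosen by input. Of 30 zinc finger models with at most 3 input reads, 2 were members, 6.67%, in Zfp213 and Zfp335, against the same 11.6%. Spans of smell and pheromone receptors held 4 such models and 0 members, too few for a comparison. Of 70 such models in lncRNA spans, 9 were members, 12.9%, in 7 genes, a share close to the 11.6%, and their reads ran from those of 6030407O03Rik and Gm32035 down to 11 and 13 TH59-DB reads at Gm36408.

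Some members sat side by side. Of 146 windows of 1 Mb with a member locus, 11 held at least 2, and 31 loci lay in them. A single gene span held several loci in 7 genes. Nol4l held 5 loci within 5.90 kb, with 187 and 277 TH59-DB reads in all, 0 and 11 masked reads and 5 and 1 input reads. One of the 5, of 714 bases, took 123 and 173 of those TH59-DB reads.

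Nedd4l held 3 loci within 21.3 kb with 224 and 277 TH59-DB reads, 6 and 8 masked reads and 0 and 3 input reads. Pxylp1, a phosphatase gene of proteoglycan synthesis, held 2 loci with 113 and 197 TH59-DB reads, 1 and 4 masked reads and 1 and 0 input reads. Septin11 held 2 loci with 51 and 75 TH59-DB reads, and Plekha6 held 2 with 73 and 66, both with 0 masked reads. In CPM the TH59-DB libraries lay within a factor of 2 of each other for the summed loci of Nol4l and of each of these 4 genes.

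Sgms1, which encodes a sphingomyelin synthase, held 3 loci that did not behave alike. A model of 63 bases held 24 and 86 masked reads and 29 and 104 TH59-DB reads. Its neighbours of 224 and 373 bases held 0 masked reads, with 18 and 17 and with 13 and 22 TH59-DB reads. The masked reads of this gene thus came from its shortest model. In the span of Nudcd2, 2 loci held 575 and 1213 TH59-DB reads, 62 and 151 masked reads and 1 and 3 input reads.

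**Figure D4:**
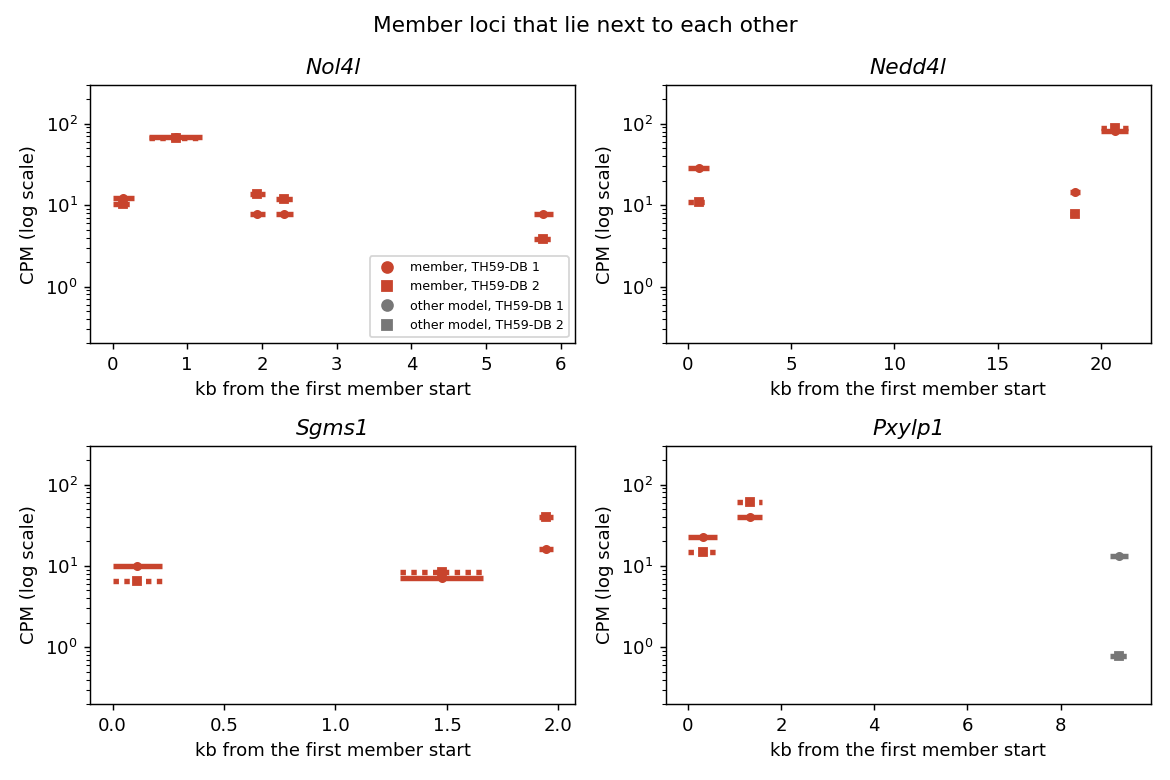
Level of the member loci in the spans of Nol4l, Nedd4l, Sgms1 and Pxylp1 in TH59-DB 1 (circles, solid lines) and TH59-DB 2 (squares, dotted lines), in CPM on a log scale against kb from the first member start, each line as long as its model. Nol4l has 5 members within 5.90 kb, and 1 other model near those of Pxylp1 is drawn in grey.

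Input RNA elsewhere in the host genes was found for some members. Of the 94 member loci in spans, 52 had another locus in the same span, and for 26 of them it held more than 3 input reads. These 26 are 27.7% of the 94 (18.9% to 37.8%), against 32.7% of 1000 uncaptured loci and 56.8% of 3965 loci with more input reads. The interval for members includes the share of the uncaptured loci. Among the genes with most input reads elsewhere in the span were Septin11 (178 and 186 input reads at its highest other locus), Tars2 (120 and 121), Ankrd12 (90 and 107) and Nudcd2 (36 and 83).

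Every autosome held members. Their share of interior models with at most 3 input reads ran from 6.06% on chromosome 15 to 20% on chromosome 14, and chromosome 2 held the most members, 17. Chromosome 14 held 16 and chromosome 5 held 15.

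Across all models, edgeR's quasi-likelihood test found 76 of 5385 tested models higher in TH59-DB than in masked TH59-DB (1.41%) and 0 lower. All 180 members were tested, 26 at 23 loci passed as higher (Benjamini-Hochberg adjusted p under 0.05) and 0 as lower, and the unadjusted p was under 0.05 for 139 as higher and for 0 as lower. The median log2 fold change was 5.51 over the members and 0.30 over all tested models. TH59-DB reads chose the members and carried them past the filter on low counts, so nothing is read from these values. The count of 26 was 90 with DESeq2 and, with 1 library left out, ran from 11 without TH59-DB 2 to 116 without masked 2. It was 54 without TH59-DB 1, 106 without masked 1 and 61 without either input library.

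Of the 5385 models, 14 were higher in masked TH59-DB than in input (0.26%) and 0 were lower, with unadjusted p under 0.05 for 208 and 159 and with 94 higher and 18 lower by DESeq2. Among the members 7 passed as higher, at 5 loci, namely chr10:109396053, Gm32035, chr8:71433020, Ttc21b and chr14:95638412. The median log2 fold change was 3.15 over the members and -0.26 over all tested models. A limit of 3 input reads left members little room to lie lower, so nothing is read from this count. It was 43 with DESeq2, 0 without either input library, 60 without masked 2, 32 without masked 1, 34 without TH59-DB 1 and 23 without TH59-DB 2.

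The values next to each limit of the selection are given without a test. With 3 input reads, 13 models were inside, Ptprm among them, and with 4 input reads, 7 were outside, among them Plxnc1, a plexin gene, with 3 and 1 input reads, 654 and 250 masked reads and 4355 and 4293 TH59-DB reads. Exactly 10 reads in TH59-DB 2 were held by 17 members, such as Gm32645 with 25 and 10 TH59-DB reads, and exactly 9 by 10 models outside, such as chr17:58860727-58861096 with 41 and 9. Exactly 10 reads in TH59-DB 1 were held by 3 members, and 9 by 1 model outside, in Bbox1, with 9 and 143. Ciita, at chr16:10482309-10482702, lay just inside the limit of 10 Mb, and chr13:110602508-110608428, with 504 and 2830 TH59-DB reads, just outside it.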

How the data were processed

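RNA was sequenced from 6 libraries, 2 for each of input, masked TH59-DB and TH59-DB. The deposited counts are whole reads per transcript model, and the deposited FPKM values are those counts per model length and library total, from which the totals were recovered. Tools named in the submitters' processing notes are cutadapt, HISAT2, Cufflinks and featureCounts, with build mm10; versions and the strand setting are not given in the sources used here. The files of the first and second libraries were joined on chromosome, start and end, which matched 7695 models; 264 more, with differing exon ends, were matched only as an alternative. Genes are RefSeq spans of GRCm38.p6 holding at least 50% of a model's bases. Counts were tested with edgeR 4.0.16 in R 4.3.3 (filterByExpr, TMM factors on the recovered totals, glmQLFit with robust estimation, 2-sided glmQLFTest), in 1 fit of 6 libraries and 3 groups, at a Benjamini-Hochberg adjusted p under 0.05. The common biological coefficient of variation was 0.702. DESeq2 1.42.0, other library sizes, no filter, other limits of the selection and leaving out each library were alternatives. Loci count once in sums, by their model with most TH59-DB reads. Intervals are exact (Clopper-Pearson, 95%) and cover counting error only, as the reads carry no molecular identifiers. The values of 1 listed gene are not reported here. The planned motif search needed a genome and was not run. Named loci are the 15 highest by the lower of their 2 TH59-DB CPM values, the 8 highest per length by the same rule, the 8 with most masked reads, the 8 leading loci with 0 masked reads, list members, the longest, the shortest and the leading 2-exon models, clustered loci and those next to a limit. The loci with a ratio under 1 and the host genes with input RNA were named after their values were seen. The members, lists and tests were chosen with earlier results of these data known.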

Additional observations from a re-analysis of the deposited data

How the results depend on the processing

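No paired analysis was run, and the fit held no term for the first or second libraries. Number 2 is the only number in the labels, and no number ties the first libraries to each other. The first libraries do list the same models with the same exon ends, as do the second libraries. Whether pairing them would change the calls was not tested. The count of 26 members higher in TH59-DB than in masked TH59-DB was 90 with DESeq2, 62 without TMM factors, 82 without the filter on low counts and 68 with sums over models as library sizes, an alternative chosen after seeing the data; it ran from 11 to 116 with 1 library left out. The count of 7 members in masked TH59-DB against input was 43, 45, 42 and 18 under the same alternatives, and ran from 0 to 60 with 1 library left out, where a lone library is assumed to vary like the other groups. The TMM factors moved the median log2 fold change of all models between TH59-DB and masked TH59-DB from 0.08 to 0.30. With at most 0 input reads there were 107 members, of which 51.4% lay in no gene span; with at least 20 reads in each TH59-DB library there were 102, of which 21.6% had 0 masked reads. At least 10 reads in TH59-DB 1 alone would have given 1545 members. Counting up to 3 masked reads as none gave 43.3% in place of 33.9%. Counting loci, a distance of 20 Mb, the looser match of the files and TH59-DB 2 alone gave 146 to 194 members, and the share in no gene span stayed between 41.1% and 43.4% when loci were counted, at 20 Mb, with the looser match, at 20 reads or with 1 base in a span counted. Depth limits the ratios: a locus at 10 reads in TH59-DB can stand at most a few fold above 3 reads in a masked library. The causes of these movements were not tested.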
